A study of Mus musculus with 6 samples.

Results

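Branched-chain amino acid breakdown was examined through 10 genes, Bcat1, Bcat2, Bckdha, Bckdhb, Dbt, Ivd, Mccc1, Mccc2, Hibch and Pcca, out of 18193 genes measured in mouse kidney. The genes were listed by their function, and each was read through the probe sets annotated to it alone, 18 of the 45101 probe sets on the array. Where a gene had several, the one with the highest mean over the 6 arrays stood for it. RNA came from dissected renal epithelium of 3 samples labelled Fh1 knockout, taken from cystic tissue, and 3 samples from wild-type littermates described as disease-free and matched for sex, each hybridised to 1 Affymetrix array. Fh1 encodes fumarate hydratase, the citric acid cycle enzyme that converts fumarate to malate. The sources used here give no strain, age or Fh1 allele, and do not say what drove the deletion. Nothing in the labels ties each sample to a separate animal, so a p-value measures only how these samples varied, which may be technical. Values are RMA expression on the log2 scale, in which a difference of 1 is a 2-fold change.

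Leucine, isoleucine and valine share their opening steps. A transaminase, cytosolic Bcat1 or mitochondrial Bcat2, passes the amino group to 2-oxoglutarate, and the branched-chain keto acid dehydrogenase complex (BCKDH) then commits the carbon skeleton to oxidation in the mitochondrion. The 3 acyl-CoA products are broken down along separate branches, which end in acetyl-CoA and acetoacetate for leucine and in propionyl-CoA, and from there succinyl-CoA, for valine and part of isoleucine. The kidney is known as a tissue in which these amino acids are transaminated and oxidised.

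The arrays were checked before the members were read. Fh1 read 12.41, 12.34 and 12.22 in wild-type and 11.54, 11.60 and 11.61 in knockout samples, a log2 difference of -0.74 (SE 0.08, limma adjusted p = 0.000396); whether its probe set lies in the deleted part is not known here. Kidney tubule genes were bright in wild-type samples, with the endocytic receptor Lrp2 at 13.12 to 13.39 and uromodulin, Umod, at 14.14 to 14.18. Wild-type 2 stood apart. Its Xist value, the RNA of the inactive X chromosome, was 11.96 against 5.61 to 7.97 in the other arrays, and its value for the Y-linked Eif2s3y was 6.20 against 8.70 to 9.59, although the controls are described as sex-matched. The fat cell gene Adipoq read 10.73 in wild-type 2 and 10.30 in knockout 3 against 4.32 to 6.72 elsewhere. Member results are therefore also given without wild-type 2, and the counts without both arrays.

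Transcripts of all 10 members were lower in the knockout. Each passed the test (limma, Benjamini-Hochberg adjusted p under 0.05 over 18193 genes), and none was higher. Among all genes, 27.7% were called lower, or 37.7% after each array was centred to a common median over the tested genes (6866 lower and 3380 higher, against 5031 and 3928). The number of genes called lower was 3160 without knockout 1 and 3279 without knockout 3. In every member the 3 knockout values lay below the 3 wild-type values, as they did for 37.1% of all genes. The fall was at least 2-fold in 7 of the 10 members, against 3.39% of all genes. The log2 differences ran from -1.76 for Ivd to -0.66 for Dbt, with a median of -1.10, while the median over all genes was -0.11. Set against that median, the members' differences ran from -1.65 to -0.55. The count of members called lower stayed at 10 without wild-type 2 and without knockout 1. It was 9 without wild-type 1, wild-type 3, knockout 2 or knockout 3, each left out alone, as Bcat1 did not pass. Over these single omissions, 17.4% to 26.4% of all genes were called lower. When wild-type 2 and knockout 3 were both left out, the count was 10, against 17.7% of all genes.

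**Figure D1:**
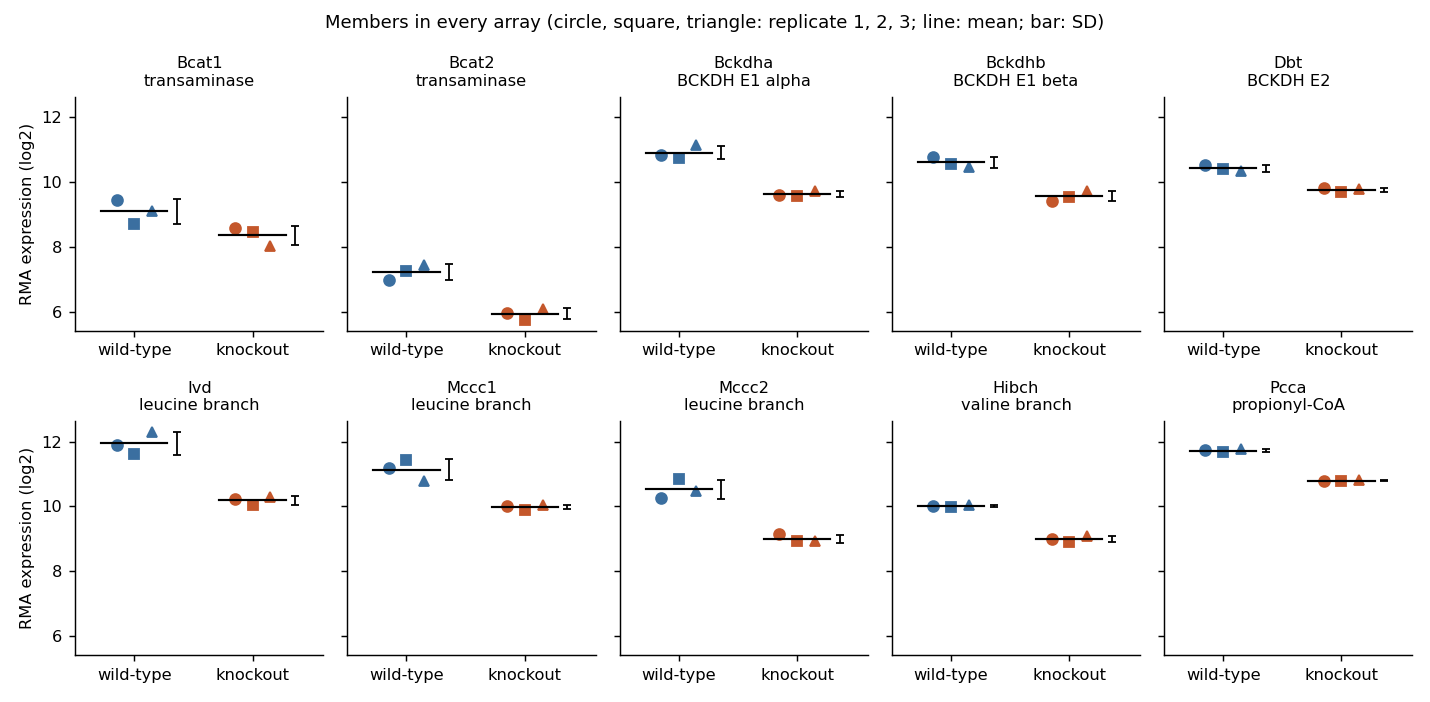
RMA expression (log2, y axis) of the 10 members in the 3 wild-type and 3 Fh1 knockout arrays, with the group mean as a line and the SD as a bar. In every panel the knockout points lie below the wild-type points, by the widest margin for Ivd and by only 0.11 for Bcat1.

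Both transaminase genes were lower, and the Bcat1 call depended on single arrays. Bcat1, the cytosolic isozyme, read 9.46, 8.69 and 9.12 in wild-type samples and 8.58, 8.46 and 8.03 in knockout samples. The groups did not overlap, but wild-type 2 lay only 0.11 above knockout 1. The log2 difference was -0.74 (SE 0.21, limma adjusted p = 0.0239), which leaves 60.0% of the wild-type level. The call ended without wild-type 1 (-0.55, adjusted p = 0.0617), without wild-type 3 (-0.72, adjusted p = 0.0626), without knockout 2 (-0.79, adjusted p = 0.0522) and without knockout 3 (-0.57, adjusted p = 0.0775). Without wild-type 2 the difference was -0.94 (adjusted p = 0.00592).

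The 3 probe sets of Bcat1 did not read alike. The next brightest had a log2 difference of -0.83 (SE 0.21) and was called lower. The dimmest read 6.90, 6.94 and 6.71 against 7.0, 6.64 and 6.46, with a difference of -0.15 (SE 0.15, adjusted p = 0.426). Its groups overlapped, and knockout 1 gave the highest value of all 6 arrays. It was the 1 member probe set of 18 not called; the other 17 were called lower, against 23.3% of all probe sets.

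Bcat2, the mitochondrial isozyme, read 6.96, 7.25 and 7.44 in wild-type and 5.95, 5.74 and 6.08 in knockout samples. The log2 difference was -1.29 (SE 0.14, limma adjusted p = 0.000345), or 2.45-fold lower, and -1.27 without wild-type 2. This was the dimmest of the 10 representative probe sets, and its knockout values lay below the array medians of 6.20 to 6.25. Within each array, Bcat1 exceeded Bcat2 by 1.87 ± 0.55 (SD, n = 3) in the controls, compared with 2.43 ± 0.42 (SD, n = 3) after knockout; this contrast shows only whether the isozymes changed unequally, since levels of different probe sets are not comparable. The change of 0.56 had an exact two-sided permutation p of 0.2, where 0.1 is the smallest p that 3 against 3 samples allow, and the ranges overlapped.

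**Figure D2:**
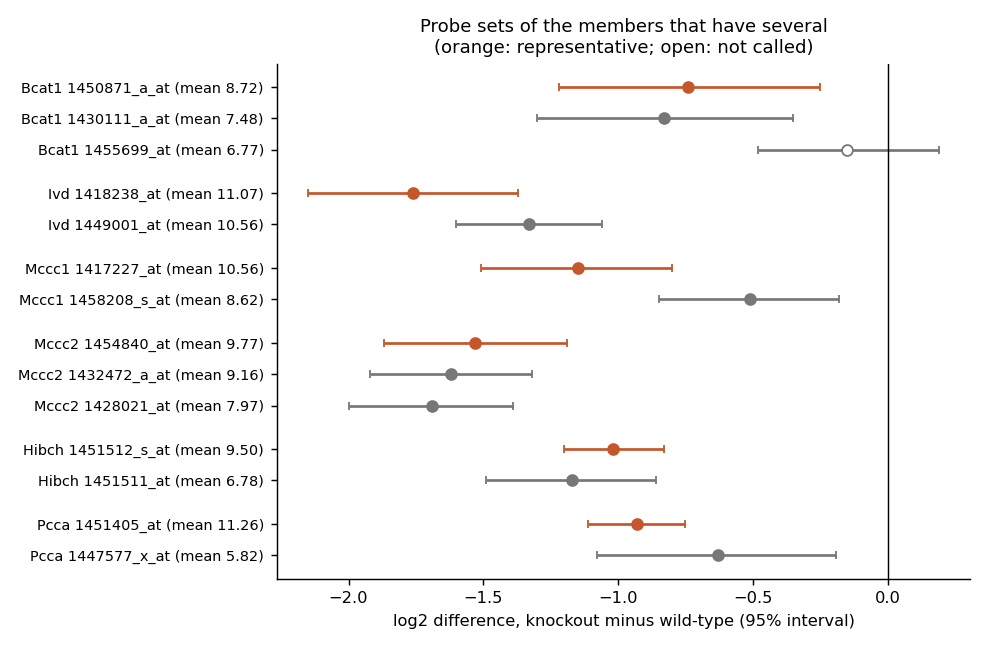
Log2 difference, knockout minus wild-type, with its 95% interval (x axis) for every probe set of the 6 members that have several (rows, with the mean over 6 arrays in brackets). All estimates lie below 0, and only the dimmest Bcat1 probe set, open symbol, was not called.

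All 3 BCKDH genes among the members were lower. The complex has an E1 decarboxylase made of the alpha subunit Bckdha and the beta subunit Bckdhb, an E2 core, Dbt, that carries the acyl group on lipoate, and an E3 subunit, Dld, shared with other dehydrogenase complexes. Bckdha read 10.83, 10.75 and 11.13 in wild-type and 9.61, 9.57 and 9.72 in knockout samples, a log2 difference of -1.27 (SE 0.11, limma adjusted p = 0.00015). Bckdhb read 10.78, 10.57 and 10.46 against 9.42, 9.54 and 9.73, a difference of -1.04 (SE 0.12, adjusted p = 0.000429). Both E1 genes were thus at 41.4% and 48.6% of their wild-type levels, and at least 0.73 separated the groups.

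Dbt had the smallest fall of the members with all arrays and the brightest probe sets. Bcat1 fell less than Dbt by the mean of probe sets (-0.57 against -0.66), and its difference was the smaller without wild-type 1 (-0.55 against -0.61) and without knockout 3 (-0.57 against -0.67). Dbt read 10.53, 10.41 and 10.33 in wild-type and 9.82, 9.70 and 9.78 in knockout samples, a log2 difference of -0.66 (SE 0.09, limma adjusted p = 0.000827), so that 63.3% of the wild-type level was left. Dld, which is outside the 10, had a difference of -0.79 (SE 0.08) by its brighter probe set, -0.37 by the other and -0.58 by their mean. Within arrays, Bckdha minus Dbt went from 0.48 ± 0.28 (SD, n = 3) to -0.13 ± 0.08 (SD, n = 3), and Bckdhb minus Dbt from 0.18 ± 0.06 to -0.20 ± 0.18. Neither pair overlapped between groups, with exact permutation p = 0.1 for each, the smallest this design allows, and 0.2 after Benjamini-Hochberg adjustment over the 8 pairs of genes compared. Apart from Bcat1 with Bcat2, these pairs were chosen after the values were seen. Without wild-type 2 the log2 differences were -1.35 for Bckdha, -1.06 for Bckdhb and -0.67 for Dbt.

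Control of the complex lies with a kinase that switches E1 off, Bckdk, and a phosphatase that switches it on, Ppm1k. Bckdk read 9.39, 9.41 and 9.63 against 9.10, 8.98 and 8.94, lower by a log2 difference of -0.47 (SE 0.10, limma adjusted p = 0.00631), and both of its probe sets were called lower. Ppm1k did not pass, with a difference of -0.15 (SE 0.09, adjusted p = 0.166). Its direction depended on the probe set: the other of its 2 probe sets was called higher at 0.43, and the mean of both gave 0.14. Klf15, a transcription factor known to promote expression of this pathway, had the largest fall of the pathway genes outside the 10, with a log2 difference of -1.66 (SE 0.20, adjusted p = 0.000592).

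The leucine branch held the 2 largest falls among the members, those of Ivd and Mccc2. Ivd, isovaleryl-CoA dehydrogenase, opens the branch and was the most lowered member with all arrays and the brightest probe sets. It read 11.90, 11.63 and 12.31 in wild-type and 10.23, 10.03 and 10.30 in knockout samples, a log2 difference of -1.76 (SE 0.17, limma adjusted p = 0.000209). That is 3.38-fold lower, with 1.32 between the nearest values of the groups, and 152 of 18193 genes fell further. Its other probe set gave -1.33 (SE 0.12), and by the mean of probe sets Mccc2 fell further than Ivd (-1.61 against -1.54). Without wild-type 2 the Ivd difference was -1.92.

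Ivd was set against the dehydrogenases of the parallel branches, which lie outside the 10. Acad8, of the valine branch, had a log2 difference of -0.92 (SE 0.08), and Acadsb, of the isoleucine branch, one of -0.73 (SE 0.12). The other Acad8 probe set gave -1.11, and the mean of probe sets gave -1.54 for Ivd and -1.01 for Acad8, a smaller gap. Within arrays, by the brightest probe sets, Ivd minus Acad8 dropped by 0.84 and Ivd minus Acadsb by 1.03 from wild-type to knockout. The ranges of both pairs were apart, with exact permutation p = 0.1 for each and 0.2 after the adjustment over 8 pairs. The design cannot place these contrasts under 0.05, and both pairs were chosen after the values were seen, Ivd being the most lowered member.

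Methylcrotonyl-CoA carboxylase, the next enzyme of the leucine branch after Ivd, uses biotin and is built from the subunits Mccc1 and Mccc2. Mccc1, which carries the biotin, read 11.19, 11.42 and 10.79 in wild-type samples and lay between 9.90 and 10.04 in the 3 knockout samples, a log2 difference of -1.15 (SE 0.16, limma adjusted p = 0.000921). Mccc2 read 10.27, 10.84 and 10.48 against 9.14, 8.94 and 8.93, a difference of -1.53 (SE 0.15, adjusted p = 0.00021). Both subunits had their highest value in wild-type 2, and no other member did. Without that array the differences were -1.01 and -1.37.

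The other probe sets of both subunits were lower too. All 3 of Mccc2 were called lower, at -1.53, -1.62 and -1.69, whereas the dimmer probe set of Mccc1 gave -0.51 (SE 0.14, limma adjusted p = 0.0221), a smaller fall than the -1.15 of its representative. Within arrays, Mccc1 minus Mccc2 was 0.60 ± 0.31 (SD, n = 3) in the controls, compared with 0.98 ± 0.13 (SD, n = 3) after knockout, with overlapping ranges and an exact permutation p of 0.2. Auh, which hydrates the product of the carboxylase and lies outside the 10, was lower by a log2 difference of -1.34 (SE 0.10). This was the largest fall among its 6 probe sets, which ran from -1.34 to -0.07 with 4 called lower, and their mean gave -0.46.

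Hibch and Pcca, which lie outside the leucine branch, varied least of the members among the wild-type samples. Hibch, the hydrolase that frees hydroxyisobutyrate from coenzyme A in valine breakdown, read 10.01, 9.99 and 10.03 in wild-type and 9.0, 8.91 and 9.07 in knockout samples. Its log2 difference was -1.02 (SE 0.08, limma adjusted p = 8.07e-05), the smallest adjusted p of the members, and its dimmer probe set gave -1.17. Hibadh and Aldh6a1, the enzymes that follow Hibch and lie outside the 10, had differences of -1.03 (SE 0.09) and -1.12 (SE 0.08).

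Pcca, the biotin-carrying subunit of propionyl-CoA carboxylase, read 11.73, 11.68 and 11.77 against 10.79, 10.77 and 10.82. The log2 difference was -0.93 (SE 0.07, limma adjusted p = 9.27e-05), leaving 52.4% of the wild-type level, and its dimmer probe set gave -0.63 (SE 0.19). Its partner subunit Pccb, outside the 10, had a difference of -1.01 (SE 0.09). Pcca minus Pccb within arrays changed by 0.07, with exact permutation p = 0.3 and overlapping ranges. Farther down, the mutase Mmut, which makes succinyl-CoA, had a log2 difference of -1.19 (SE 0.09). The 3 probe sets of Mmut ran from -1.3 to -0.22 with 2 called lower, and their mean gave -0.90. Without wild-type 2, Hibch gave -1.02 and Pcca -0.96.

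No array was the highest or the lowest of its group for every member. In the wild-type group, wild-type 3 was highest for 5 members (Bcat2, Bckdha, Ivd, Hibch and Pcca), wild-type 1 for 3 (Bcat1, Bckdhb and Dbt) and wild-type 2 for the Mccc pair. In the knockout group, knockout 2 was lowest for 7 members and highest for 0. The SD was smaller among knockout than among wild-type samples for 9 of the 10, Hibch being the exception.

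**Figure D3:**
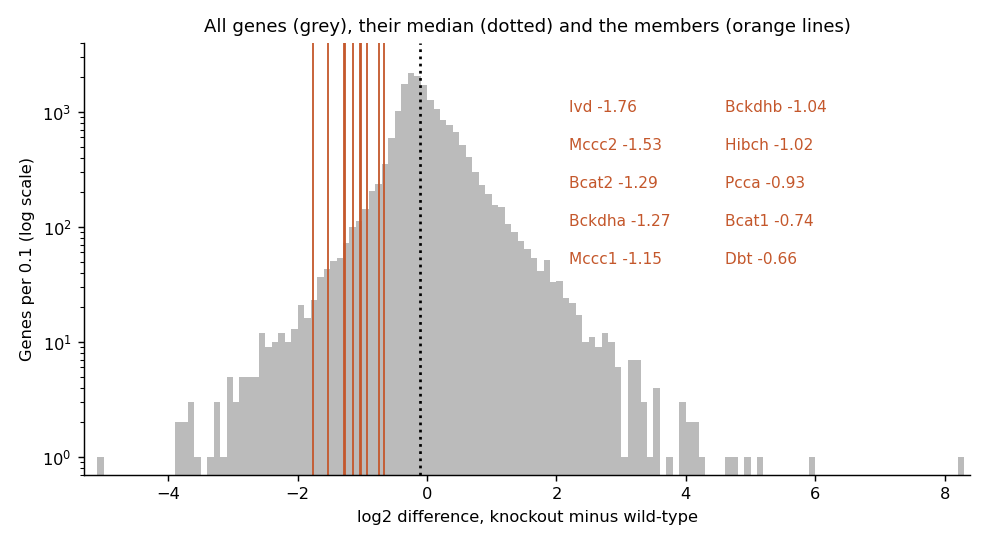
Number of genes (y axis, log scale) by log2 difference, knockout minus wild-type (x axis, bins of 0.1), for 18193 genes in grey, with the members as orange lines and the all-gene median of -0.11 dotted. The members lie between -1.76 and -0.66, on the lower side of the distribution.

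Promoter sequence was read for 9 of the 10 members, all but Dbt, as 13 windows in RefSeq on GRCm38.p6, each from 250 bases before to 50 after an annotated start. Motifs were searched on both strands: the ERR half-site AAGGTCA, the E-box CACGTG, the ATF4 composite element TGATGNAA, the antioxidant response element core TGACNNNGC and the NRF1 site GCATGCGC. Across all 32851 windows these occurred in 4.72%, 7.15%, 3.97%, 12.4% and 2.71%. Among the members, the E-box was found in the Mccc2 window, at position -9 from the start, and the antioxidant element core in 1 Bckdhb window, at -250 and, on the other strand, at -122. Each was thus in 1 of the 13 windows, and the other 3 motifs had 0 matches. Both windows are shown because they hold the matches, in capitals, which do not overlap. The Mccc2 window lies at chr13:100015590-100015889 on the minus strand, and the Bckdhb window at chr9:83924887-83925186 on the plus strand.
Mccc2: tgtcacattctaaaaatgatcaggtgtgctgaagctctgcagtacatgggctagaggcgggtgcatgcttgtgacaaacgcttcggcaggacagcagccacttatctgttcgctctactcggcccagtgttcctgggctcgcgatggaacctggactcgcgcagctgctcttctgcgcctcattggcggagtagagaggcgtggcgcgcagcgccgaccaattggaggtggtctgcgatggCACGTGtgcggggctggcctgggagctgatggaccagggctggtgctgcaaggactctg
Bckdhb: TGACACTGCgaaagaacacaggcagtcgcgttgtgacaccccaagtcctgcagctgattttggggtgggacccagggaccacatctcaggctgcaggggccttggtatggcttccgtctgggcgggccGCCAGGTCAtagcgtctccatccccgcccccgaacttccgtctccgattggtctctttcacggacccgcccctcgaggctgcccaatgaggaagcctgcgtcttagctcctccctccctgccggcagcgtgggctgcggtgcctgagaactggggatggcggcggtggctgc

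The rest of the pathway mostly moved with the members. Of 27 other genes listed for transport, control and the remaining steps, 26 were measured; 19 were lower, 1 was higher and 6 did not pass, with a median log2 difference of -0.86. Without wild-type 2 the counts were again 19 and 1. Besides those named above, Acadm, the medium-chain acyl-CoA dehydrogenase of fat oxidation, fell by 1.19 (SE 0.13) and Acat1, the thiolase that ends isoleucine and ketone breakdown, by 1.16 (SE 0.13). Genes that did not pass included Hsd17b10, an isoleucine branch dehydrogenase, at -0.08 (SE 0.08, limma adjusted p = 0.439), and Slc25a44, the mitochondrial carrier of these amino acids, at -0.20 (SE 0.10, adjusted p = 0.142). Of the 3 Slc25a44 probe sets, 2 were called lower, and the one brightest in wild-type arrays gave -0.55 (adjusted p = 0.00336). Apart from Klf15, Auh, Acadm, Mmut, Bckdk, Ppm1k and Slc7a5, the genes outside the 10 were chosen for their place in the pathway after their values were seen.

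The only pathway gene called higher was a transporter. Slc7a5, the light chain of the plasma membrane exchanger LAT1, read 6.30, 6.28 and 6.78 in wild-type and 7.41, 7.08 and 7.14 in knockout samples. It rose by a log2 difference of 0.76 (SE 0.16, limma adjusted p = 0.00627), while 21.6% of all genes were called higher, and its signal was dim, beside array medians of 6.20 to 6.25. Its partner heavy chain Slc3a2 did not pass (0.22, SE 0.12, adjusted p = 0.151), though it did without wild-type 1 (0.32, adjusted p = 0.0418). Slc43a2, another transporter of large neutral amino acids, was lower at -1.11 (SE 0.09).

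**Figure D4:**
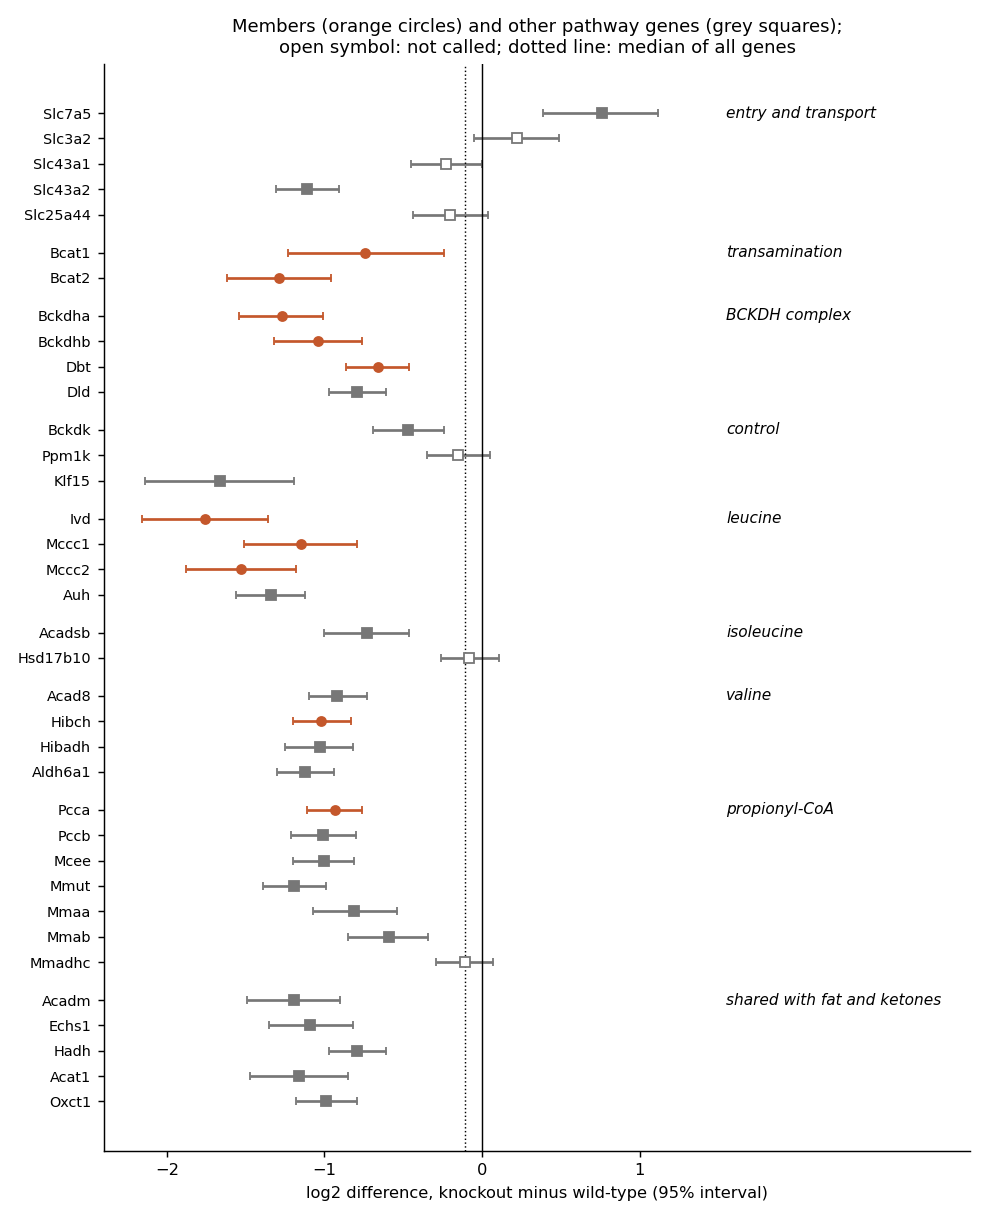
Log2 difference, knockout minus wild-type, with its 95% interval (x axis) for the 10 members (orange circles) and 26 other genes of the pathway (grey squares), ordered by step. All members lie left of 0, Slc7a5 at 0.76 is the only called gene to the right, and open symbols mark the 6 genes not called.

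Genes of the cofactors were either called lower or did not pass, while 27.7% of all genes were called lower. Of 6 genes that use, recycle, carry or attach biotin, 3 were lower and none was higher, with a median log2 difference of -0.72; pyruvate carboxylase, Pcx, had the largest fall at -1.68 (SE 0.16), and Hlcs, the ligase that attaches biotin to Mccc1 and Pcca, did not pass (0.24, SE 0.11). Of 5 genes that make, attach or carry lipoate, 4 were lower with a median of -0.28. Dlst, the oxoglutarate dehydrogenase E2, was lowest at -0.75 (SE 0.09), and its call ended with the mean of its probe sets (-0.23, limma adjusted p = 0.0591).

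Other gene lists moved in the same samples. For proximal tubule markers, 13 of 15 were lower with a median log2 difference of -1.73, and their summed signal on the linear scale was 108572 to 137374 in wild-type and 48493 to 51922 in knockout arrays. The 10 members summed to 17223 to 18497 and 7457 to 8046, with a median log2 difference of -1.10. Such sums weigh the brightest probe sets most, and levels of different probe sets are not comparable. In bulk tissue, fewer cells of a type and less RNA per cell cannot be told apart. Distal tubule markers were lower in 9 of 10 (median -0.94), collecting duct markers in 5 of 10 (-0.49), endothelial markers in 6 of 7 (-0.70) and podocyte markers in 2 of 4 (-0.62). Immune markers were higher in 10 of 12 (median 1.66, summed signal 6635 to 8328 against 15190 to 19434) and matrix markers in 7 of 10 (median 1.52, summed signal 4603 to 5878 against 12097 to 20472), while 0 of 3 fat cell markers passed. The part of these cell types in the fall of the members was not tested.

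Among metabolic lists, 14 of 15 citric acid cycle genes were lower with a median of -0.67, and 12 of 13 genes of aromatic amino acid breakdown with a median of -1.43, against -1.10 for the members. Ogdh, the oxoglutarate dehydrogenase E1, had a difference of -1.26 by its brightest probe set and -0.78 by the mean of its probe sets. Hpd, of tyrosine breakdown, had one of -3.69, or -3.01 without wild-type 2 and knockout 3. Differences between the lists were not tested.

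**Figure D5:**
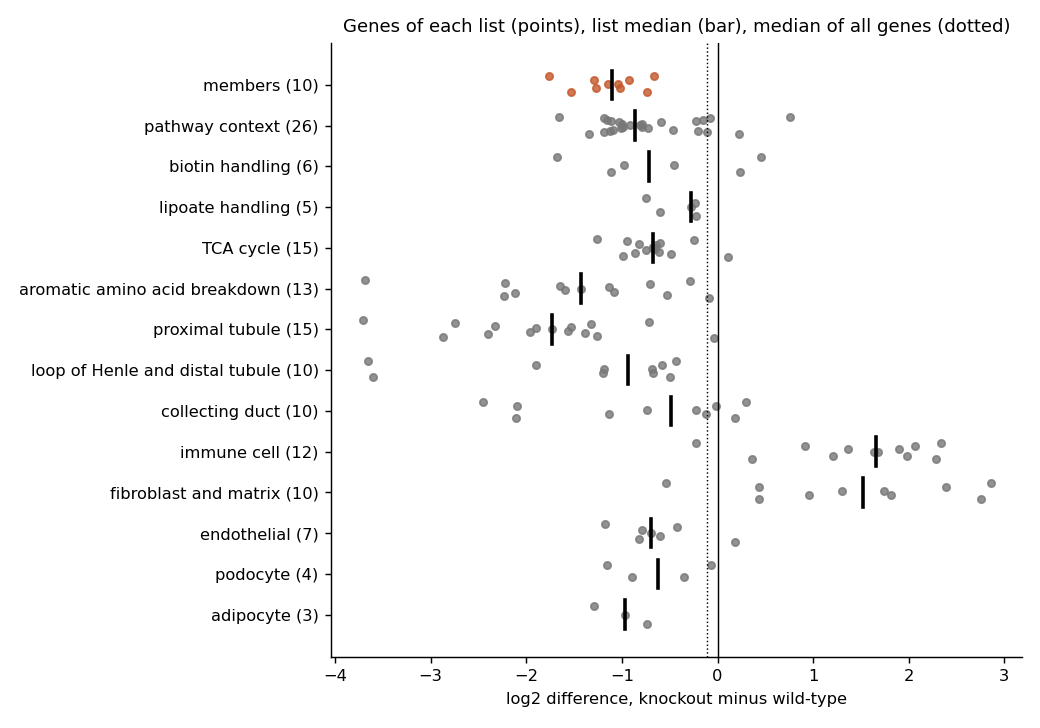
Log2 difference, knockout minus wild-type (x axis), of each measured gene (points) in the members and 13 other lists (rows, number of genes in brackets), with the list median as a bar and the all-gene median of -0.11 dotted. The members span -1.76 to -0.66. The range is wider for the proximal tubule markers, -3.71 to -0.04. It is narrower for the lipoate genes, -0.75 to -0.22, and the fat cell markers, -1.29 to -0.74, and the lists differ in number of genes.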

How the data were processed

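Gene expression was measured on 6 arrays, 3 wild-type and 3 Fh1 knockout. The authors deposited 1 table of 45101 probe sets whose values are RMA expression on the log2 scale; the submitters' processing notes name RMA, and the range of the values (2.90 to 14.82) gave the scale. The RMA program and the chip definition it used are not stated in the sources at hand. RMA gives no detection call and compresses folds of dim genes; precision is limited by the number of arrays.

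Probe sets were named through the supplied platform annotation, updated by Entrez identifier to GRCm38.p6 symbols. Of the probe sets, 34945 had 1 gene, 932 had several and 9160 had no gene. The 64 controls were left out of the gene fits, while the fit of every probe set on its own covered all 45101, controls included. Each gene was fitted through its brightest probe set in limma 3.58.1 under R 4.3.3 (lmFit, eBayes). The tests were two-sided without covariates or filter, and Benjamini-Hochberg adjustment covered 18193 genes. SE is the moderated standard error, and intervals are 95%. Within-array contrasts used exact permutation in SciPy 1.17.1. No set test was run.

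The members, lists, naming rule and tests were chosen with earlier results of these data known. The rule named all members with every probe set, Fh1, up to 4 called pathway genes per direction by size of change, Bckdk and Ppm1k, and from each other list the called gene that changed most per direction. Of these, Slc22a7 (-3.71), Pvalb (-3.65), Slc26a4 (-2.45), Laptm5 (2.34), Fn1 (2.86), Ehd3 (-1.18) and Nphs1 (-1.16) came from the marker lists, with all arrays and the brightest probe sets. Slc22a7 was -2.92 without wild-type 2 and -2.57 without both arrays with high Adipoq, where Pvalb was -4.24. Laptm5 was 0.65 with the mean of its probe sets. The proteins of Bcat1 and Bcat2 were not compared here.

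Simulated data for this comparison held 18193 genes, with log2 changes of 0.5, 1 and 2 given to 50, 100 and 50 of them. The fit recovered 38%, 91% and 100% of these, with 11 false calls among 171 calls. In the measured data 5031 genes were called lower and 3928 higher, so these rates need not hold there. Alternatives were other probe set rules, a filter on dim genes, a trended robust prior, centring, quantile normalisation, array weights, a replicate block, a threshold of 0.01, and arrays left out.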

Additional observations from a re-analysis of the deposited data

How the results depend on the processing

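Of 169 values of the 10 members under 17 alternatives, none changed direction and 164 kept their side of the threshold. The 5 that did not were all Bcat1: 4 with an array left out, given with the results, and 1 with the threshold at 0.01 (adjusted p = 0.0239). Direction could not change under the dim-gene filter, the trended prior, the replicate block, single probe set fits or the stricter threshold, which keep the log2 difference. Choosing probe sets on wild-type arrays also gave the members the same differences. The count of members lower was 10 or 9 under every alternative, and 9 with dim genes filtered out (mean below the median signal) because Bcat2 was then not tested. The count of members higher was 0 in each. Across the alternatives the log2 differences ran from -1.98 to -1.54 for Ivd, from -1.33 to -0.83 for Mccc1 and from -0.74 to -0.61 for Dbt. The lowest value of Ivd came with wild-type 2 and knockout 3 left out, an alternative chosen after seeing the data.

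Of the other pathway genes, 19 to 21 were lower. Those higher numbered 1, except 0 with the dim genes filtered out, where Slc7a5 was not tested. With an array left out they ran from 1 to 2, the 2 arising without wild-type 1. Ppm1k was 0.14 with the mean of its probe sets (limma adjusted p = 0.107). The contrast of Bcat1 with Bcat2 ran from 0.34 to 0.87 with arrays left out and was 0.72 with the mean of probe sets.

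Same-numbered samples had correlations of deviations of -0.10, -0.13 and -0.13 over all genes, and differently numbered ones ran from 0.01 to 0.09. Deviations were taken from the group mean, so these correlations are not independent of each other. These gave no sign that the numbers pair the samples, but with 3 samples in a group they cannot exclude it. With a replicate block 10 members were lower, and 3930 of all genes were lower against 5031 without it.

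Over all genes, 3160 were lower without knockout 1, 3279 without knockout 3 and 3212 without the 2 arrays with high Adipoq. With dim genes filtered out, 2334 of 9097 were lower and 2944 higher.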
